A study of Rattus norvegicus with 74 samples.

Results

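The mitochondrial ribosomal protein genes were taken as the protein_coding genes whose symbol begins with Mrpl or Mrps and a number. The rule found 71 genes of the 30560 in the count tables, of which 42 carry an Mrpl symbol and 29 an Mrps symbol. Mitochondria keep their own ribosome, which translates the few proteins encoded by mitochondrial DNA, all of them membrane parts of the respiratory chain and the ATP synthase. The ribosomal RNAs of this ribosome come from mitochondrial DNA, while each of its proteins is encoded in the nucleus, made in the cytosol and imported. The protein set joins homologs of bacterial ribosomal proteins with proteins found in the mitochondrial ribosome and not in bacteria, and muscle and heart, which are rich in mitochondria, depend on it for their respiratory chain.

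By known placement, 44 of the genes encode large-subunit proteins and 26 small-subunit proteins. Mrps18a and Mrps30 carry small-subunit symbols, but their proteins sit in the large subunit, and they are counted there. Mrps36 is counted in neither subunit, since its protein is known as a component of the oxoglutarate dehydrogenase complex. The symbol Mrpl42 stands for 2 gene identifiers, ENSRNOG00000042740 and ENSRNOG00000025964, which are kept apart.

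RNA came from male wild-type Wistar Kyoto rats of 9 weeks, all given water with deuterium oxide (8% by volume) and killed under isoflurane 24 h after the last treadmill session. Trained rats (ExT) ran for 4 weeks from the age of 5 weeks, on 5 days per week, in sessions that reached 60 min at 20 m/min, and sedentary rats (Sed) spent the same time on a treadmill that stood still. Libraries were made from whole red gastrocnemius (SM, 15 Sed and 15 ExT), from mitochondria of the same muscle, isolated by immunoprecipitation with RNase-A and proteinase-K steps afterwards (MT, 15 and 15), and from the wall of the left ventricle of 14 of these rats (LV, 7 and 7). Each library came from 1 rat. The kits differed, with a Zymo kit for SM (50 ng of RNA) and MT (10 ng) and an Illumina Ribo-Zero kit for LV (100 ng), so tissue and library kit cannot be told apart in any contrast of LV with SM. The RNA input also differed between MT and SM.

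Library totals were 19477976 to 39401323 counts in SM, 530397 to 9988027 in MT and 54645657 to 75758777 in LV. The mitochondrial genome took 22.1% to 35.9% of all counts in SM, 12.9% to 95.4% in MT and 39.9% to 50.7% in LV, so that some MT libraries held a lower share of mitochondrial transcripts than whole muscle. Summed over the 71 genes, an SM library held 29579 to 62475 counts, an LV library 106663 to 140220 and an MT library 736 to 1991. Marker lists followed the tissue labels: 7 skeletal muscle genes summed to 125903 to 168941 CPM of nuclear-encoded counts (nuclear CPM) in SM and to 5371 to 10918 in LV, and 7 heart genes summed to 43246 to 54535 in LV and to 21.2 to 120 in SM. Of the heart genes 4 were at 0 in some SM library, and 1 of the muscle genes in some LV library. In whole tissue, fewer cells of a type and less RNA per cell cannot be told apart.

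The first question was how much of the nuclear-encoded RNA the family takes in each kind of library. As a percentage of nuclear-encoded counts, the lowest, median and highest sums over the 71 genes were 0.170%, 0.231% and 0.264% in SM_Sed, and 0.197%, 0.240% and 0.295% in SM_ExT. In MT_Sed they were 0.166%, 0.182% and 0.195%, and in MT_ExT 0.166%, 0.177% and 0.190%. In LV_Sed they were 0.322%, 0.344% and 0.354%, and in LV_ExT 0.313%, 0.351% and 0.366%. Every LV library lay above every SM library on this scale, and the Sed and ExT libraries of each kind overlapped. Only the SM_Sed library of rat 8, at 0.170%, lay within the MT range, and every other SM library lay above it. The large-subunit genes supplied most of the sum in each kind, with medians of 0.156% in SM, 0.111% in MT and 0.229% in LV, against 0.0763%, 0.0651% and 0.102% for the small-subunit genes.

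**Figure D1:**
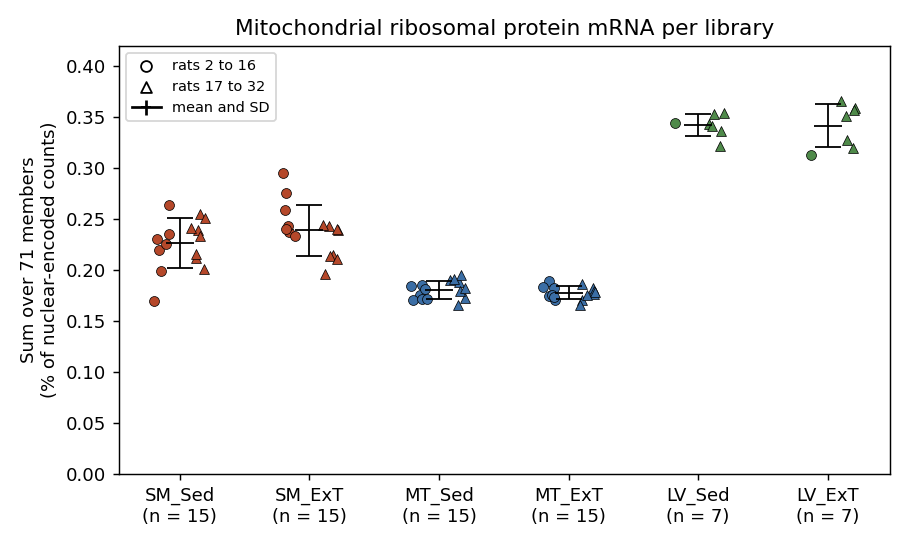
Sum of the counts of the 71 mitochondrial ribosomal protein genes in each library, as a percentage of nuclear-encoded counts (vertical axis, from 0), for the 6 groups. Points are libraries (circles: rats numbered 2 to 16, triangles: rats 17 to 32), and bars give the mean and SD. The LV libraries lie between 0.313% and 0.366%, above all SM libraries, and the MT libraries between 0.166% and 0.195%.

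Within the family, the mean levels spanned a wide range in whole tissue and a narrow one in the mitochondrial fraction. In nuclear CPM, the interquartile range over the 71 genes was 1.20 log2 units in SM_Sed, 1.14 in LV_Sed and 0.70 in MT_Sed. Each gene has the same length in every group, so length does not enter the comparison of spreads. Levels of different genes cannot be ranked without transcript lengths. In MT, 1262 odorant and vomeronasal receptor genes together took 1.37% to 1.98% of nuclear-encoded counts, against 0.000766% to 0.00158% in SM. The part of such counts in the MT levels, their spread and their order was not tested. The medians over the genes were 25.6 nuclear CPM in SM_Sed, 24.5 in MT_Sed and 37.8 in LV_Sed.

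The genes with the most counts in SM_Sed were Mrpl54, a large-subunit protein, at a mean of 122 nuclear CPM, Mrpl12, the stalk protein that recruits translation factors, at 119, Mrps15 at 89.4 and Mrpl15 at 75.6. Those with the fewest were Mrpl42 under ENSRNOG00000025964 at 0.0394, Mrps17 at 0.328, Mrps6 at 1.81 and Mrpl32 at 9.24. The first of these 4 had 0 to 3 counts in an SM_Sed library, 0 in 8 of the 15, while ENSRNOG00000042740, under the same symbol, had a mean of 45.4 nuclear CPM. Mrpl12 remained among the highest in the heart, at 156 nuclear CPM in LV_Sed, and had 26.9 in MT_Sed. In MT_Sed the highest was Mrps27, at 49.6.

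The order of the genes in SM_Sed resembled that in LV_Sed (Spearman's rho 0.697 over the 71 genes) more than that in MT_Sed (0.360), as a description over genes that share libraries and depth. Between arms rho was 0.995 in SM and 0.934 in MT. Sampling noise bears on the MT order, since 6 of the 71 genes had a median count under 10 in MT_Sed, against 2 in SM_Sed and 1 in LV_Sed, and 3 counts in an MT library stood for 2.84 to 6.97 nuclear CPM.

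**Figure D2:**
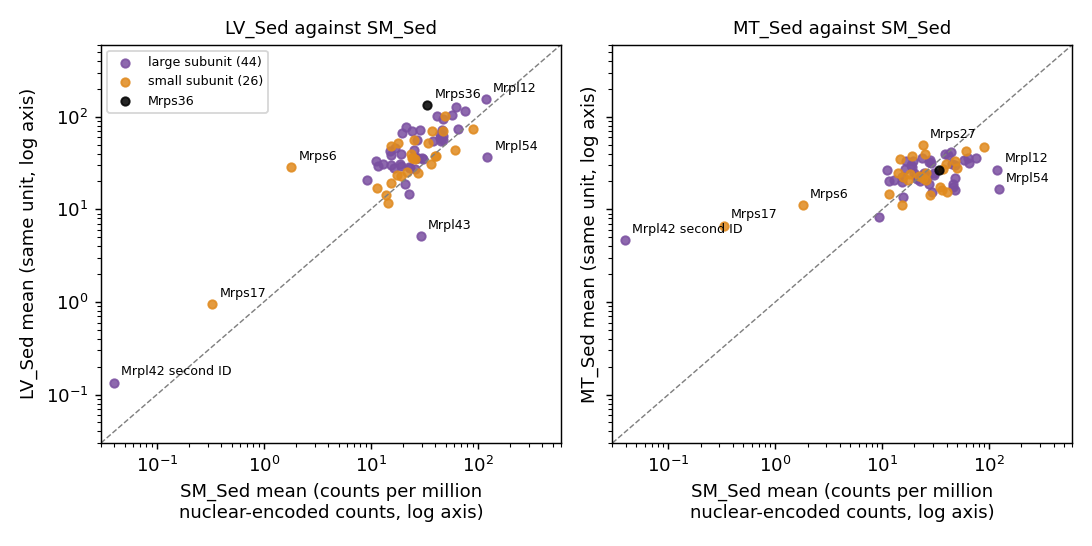
Mean level of each gene in LV_Sed (left) and MT_Sed (right) against its mean in SM_Sed, in nuclear CPM (CPM of nuclear-encoded counts) on log axes. Colours give the subunit, the dashed line marks equal levels, and the points far from it are named. In MT_Sed the genes lie from 4.62 to 49.6, against 0.0394 to 122 in SM_Sed, and the lowest in SM_Sed is also the lowest in MT_Sed.

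Members of the family varied together from rat to rat within a tissue. The correlation of log2 levels, with each library set to its median gene and the arm means removed, had a median of 0.44 over the 2346 pairs of 69 genes in the 30 SM libraries, and 90.2% of pairs were positive. Over pairs of all 13570 genes tested in SM the median was -0.003 and 49.5% were positive. In the 14 LV libraries the median over 2415 pairs was 0.57 with 96.2% positive, against -0.001 and 49.9% over all genes. These values are descriptions: the pairs share libraries, scaling and RNA quality. Setting each library to its median gene also draws the value over all genes toward 0, so it is not an independent background. The rats were numbered from 2 to 32, and with the means of arm and of 2 ranges of rat number (2 to 16 and 17 to 32) removed, the SM median was 0.40.

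Mrpl12 had the highest mean correlation with the other genes in SM, 0.55, and Mrpl2 and Mrpl39 the lowest, both 0.041. In LV the lowest were Mrps2 at 0.12, Mrpl40 at 0.13 and Mrpl43 at 0.17.

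Since the genes moved together, their promoters were read for 3 motifs of factors known to act on nuclear genes for mitochondria: NRF1 as GCGCANGCG, the ETS family, which includes GABP, as CCGGAAG, and YY1 as AAGATGGCG. Both strands were searched in the RefSeq promoter table (assembly GRCr8), which holds 250 bases before and 50 after each start and matched 55 of the symbols with 57 promoters. The NRF1 letters occurred in 10 of the 57 (17.5%), against 5.80% of all 33469 promoters and 7.62% of the 21842 of protein_coding genes. The ETS letters occurred in 18 (31.6%, against 8.75% and 10.7%), and the YY1 letters in 8 (14%, against 1.73% and 2.07%). Any of the 3 occurred in 28 (49.1%, against 14.5% and 18.1%). The letters are a description of these windows and show no binding.

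Promoters are printed for 4 of the genes named in the comparisons, 5′ to 3′ in the direction of the gene, with matched letters in capitals. Mrpl17, which had a large deficit in the mitochondrial fraction, has the NRF1 letters from positions -55 and -17 relative to the start, and on the other strand from position -54 (chr1:169575650-169575949, minus strand). Mrpl54 and Mrpl12, whose deficits there were larger, have none of the 3 motifs in their windows, which are not printed. Mrps18a and Mrps18b, which are related to the same bacterial protein, are placed in different subunits. Mrps18a (chr9:22367331-22367630, minus strand) has the ETS letters from position -38 and the YY1 letters from position 1. Mrps18b (chr20:2842756-2843055, plus strand) has the NRF1 letters from position -20, and on the other strand from position -19, and the ETS letters, on the other strand, from position -3. Mrps6, which differed most between heart and muscle, has none of the 3 in its window (chr11:44778417-44778716, plus strand). The NRF1 matches on opposite strands overlap each other, and no match of one motif overlaps a match of another in the 4 printed windows.
Mrpl17: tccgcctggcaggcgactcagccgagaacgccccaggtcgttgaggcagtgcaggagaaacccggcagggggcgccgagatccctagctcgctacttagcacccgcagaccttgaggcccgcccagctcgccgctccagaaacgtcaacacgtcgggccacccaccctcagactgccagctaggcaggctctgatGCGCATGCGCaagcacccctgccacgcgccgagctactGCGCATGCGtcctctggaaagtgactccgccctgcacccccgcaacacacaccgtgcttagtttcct
Mrps18a: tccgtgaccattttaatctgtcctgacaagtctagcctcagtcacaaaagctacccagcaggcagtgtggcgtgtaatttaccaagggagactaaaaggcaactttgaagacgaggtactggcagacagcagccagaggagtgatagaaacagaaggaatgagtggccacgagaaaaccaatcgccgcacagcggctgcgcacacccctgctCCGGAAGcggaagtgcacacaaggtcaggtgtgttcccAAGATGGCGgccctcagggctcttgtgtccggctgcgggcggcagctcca
Mrps18b: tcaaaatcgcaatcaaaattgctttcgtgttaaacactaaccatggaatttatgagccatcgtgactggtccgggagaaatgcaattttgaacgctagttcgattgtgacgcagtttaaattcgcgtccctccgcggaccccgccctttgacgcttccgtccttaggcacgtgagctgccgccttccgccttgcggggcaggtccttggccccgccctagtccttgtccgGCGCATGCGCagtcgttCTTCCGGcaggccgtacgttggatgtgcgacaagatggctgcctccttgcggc
Mrps6: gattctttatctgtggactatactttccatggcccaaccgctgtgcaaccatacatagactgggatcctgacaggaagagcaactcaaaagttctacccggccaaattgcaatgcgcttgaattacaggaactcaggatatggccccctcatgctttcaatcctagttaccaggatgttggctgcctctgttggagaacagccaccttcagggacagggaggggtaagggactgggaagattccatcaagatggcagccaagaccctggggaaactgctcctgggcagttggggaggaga

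Between heart and muscle, members of the family differed in both directions and by very different amounts. LV was compared with SM of the same 7 rats per arm, with edgeR's quasi-likelihood test over all genes and TMM scaling, which sets libraries level on the bulk of genes. In Sed rats 28 of 70 genes tested were higher in LV and 27 lower at an adjusted p under 0.05, and in ExT rats 30 were higher and 20 lower. Over all genes 78.7% were called in Sed rats (40.0% higher, 38.6% lower) and 79.3% in ExT rats (39.7% and 39.5%), so the family's share of calls was near or below the background. The median log2 difference over the genes was -0.01 in Sed and 0.08 in ExT, against 0.04 and 0.01 over all genes.

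The split depended on the scaling. With library totals alone, 36 genes were higher and 15 lower in Sed rats (50.3% and 29.9% over all genes), and 39 and 13 in ExT rats (47.5% and 31.7%). On the nuclear CPM scale of the summed levels, 60 of 71 genes had a higher mean in LV_Sed than in SM_Sed. Between arms, 26 genes were called higher in LV in both and 19 lower in both, and none was called in opposite directions. Those counts are given without a share over all genes, of which 78.7% in Sed and 79.3% in ExT rats were called. In Sed rats the libraries of 32 of the 71 genes overlapped between tissues, with 21 genes (29.6%) entirely higher and 18 (25.4%) entirely lower in LV, near the 27.9% and 28.1% of all 14367 genes tested. In nuclear CPM 43 of the 71 were entirely higher and 5 entirely lower, against 49.5% and 15.1% of all genes tested. By class, 20 of 43 large-subunit genes tested were higher and 16 lower in Sed rats, and 7 of 26 small-subunit genes were higher and 11 lower. Of the proteins with a counterpart at the same place in the bacterial ribosome, 19 of 38 were higher and 13 lower, and of those specific to the mitochondrial ribosome 8 of 27 were higher and 10 lower. In this count Mrps18c is in the former class, Mrps18b, which has a place of its own, in the latter, and Mrps18a in neither.

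Mrps6, a small-subunit protein with a bacterial homolog, was the member most enriched in the heart. Its TMM-scaled CPM, with the lowest, median and highest library, was 0.895, 1.27 and 2.03 in SM_Sed and 13.5, 14.2 and 15.8 in LV_Sed. The groups lay far apart, and the log2 difference was 3.39 (SE 0.134, adjusted p = 1.4e-14, n = 7 against 7). In ExT rats the levels were 0.776, 1.34 and 2.10 in SM and 13.5, 15.5 and 18.2 in LV, a difference of 3.51 (SE 0.144). In RefSeq (assembly GRCr8) the gene overlaps Slc5a3, which encodes a sodium-coupled inositol transporter. Slc5a3 was higher in LV as well, by 1.57 (SE 0.129) in Sed and 1.37 (SE 0.102) in ExT rats, with 3.98, 6.42 and 9.87 CPM in SM_Sed and 18.8, 20.7 and 21.5 in LV_Sed. No counting rule or strand setting is given in the sources used here, so reads from the shared stretch cannot be told apart.

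Mrpl43, a large-subunit protein, was the member most depleted in the heart. Its libraries read 18.6, 23.6 and 23.8 CPM in SM_Sed and 2.18, 2.42 and 3.002 in LV_Sed, without overlap, and the log2 difference was -3.13 (SE 0.091, adjusted p = 1.4e-16). In ExT rats it was -3.04 (SE 0.105), with 20.2, 22.7 and 27.3 in SM and 1.93, 2.96 and 3.37 in LV. The gene overlaps Twnk, which encodes the helicase of mitochondrial DNA replication. Twnk was lower in LV by a smaller amount, -0.97 (SE 0.075) in Sed and -0.94 (SE 0.098) in ExT rats.

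Mrpl54 had the next largest deficit in LV. It read 79.4, 90.7 and 103 CPM in SM_Sed and 17.2, 18.6 and 19.2 in LV_Sed, a log2 difference of -2.30 (SE 0.065, adjusted p = 8.7e-17), and -1.92 (SE 0.114) in ExT rats. Mrpl40, another large-subunit protein, differed by -1.29 (SE 0.086) in Sed and -1.15 (SE 0.105) in ExT rats, from 17.2, 17.7 and 19.7 CPM in SM_Sed to 6.30, 7.11 and 9.74 in LV_Sed. Mrps5, a core small-subunit protein, differed by -1.08 (SE 0.070) and -1.11 (SE 0.067), from 40.7, 47.3 and 52.1 CPM to 19.6, 22.8 and 24.3. In each of these 3 genes every LV_Sed library lay below every SM_Sed library.

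Among the genes higher in the heart, Mrps36, the oxoglutarate dehydrogenase component, read 24.3, 26.4 and 29.4 CPM in SM_Sed and 56.1, 68.0 and 70.9 in LV_Sed. The log2 difference was 1.33 (SE 0.062, adjusted p = 2.0e-13) in Sed and 1.49 (SE 0.095) in ExT rats. Mrpl13, a large-subunit protein with a bacterial homolog, rose from 14.8, 15.7 and 17.8 CPM to 36.2, 39.6 and 41.7, by 1.32 (SE 0.057) in Sed and 1.44 (SE 0.091) in ExT rats. Mrpl49, which is specific to mitochondria, rose from 12.8, 13.4 and 16.99 CPM to 28.6, 33.3 and 37.1, by 1.22 (SE 0.081) and 1.35 (SE 0.087). No SM_Sed library of these 3 genes reached the lowest LV_Sed library. RefSeq lists 3 named pseudogenes for Mrps36, so its count is uncertain to that extent, and Mrpl49 overlaps Syvn1.

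**Figure D3:**
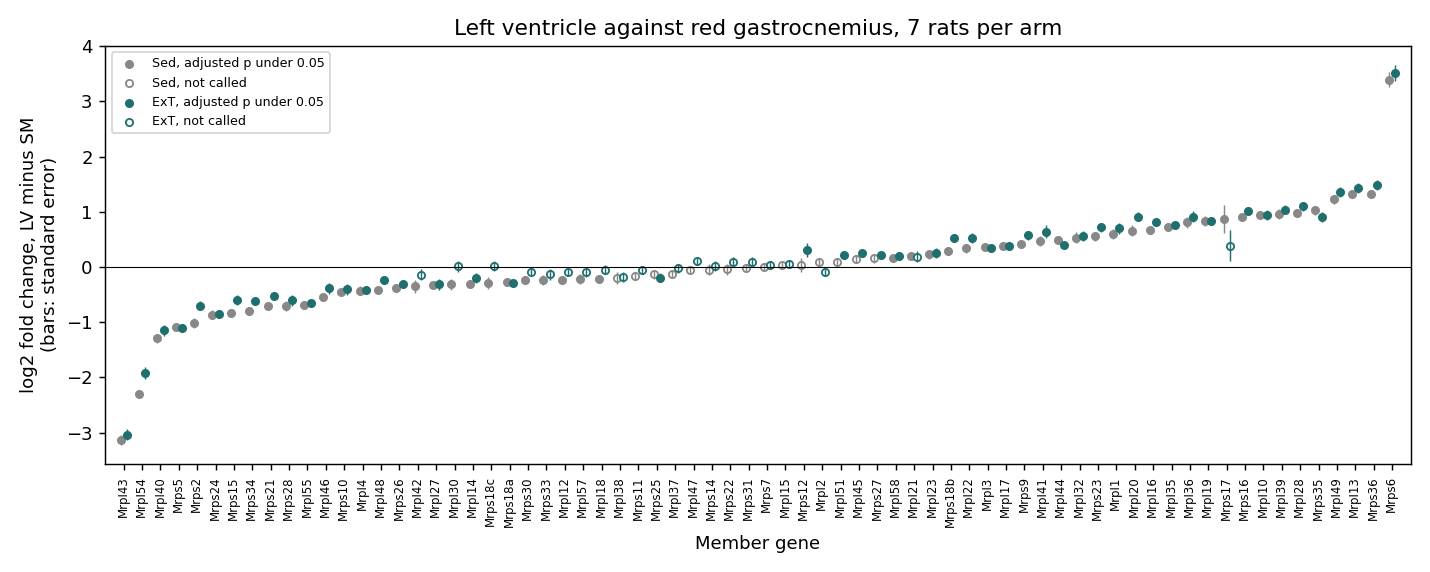
log2 fold change of LV against SM for the 70 genes tested, in Sed (grey) and ExT (green) rats, 7 rats per arm, ordered by the Sed value. Bars are standard errors, and open circles did not pass an adjusted p of 0.05. Values run from -3.13 for Mrpl43 to 3.39 for Mrps6 in Sed rats, with the other genes between them.

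Mrps18a, Mrps18b and Mrps18c, related to the same small-subunit protein of bacteria, did not move as one. Mrps18a, placed in the large subunit, was lower in LV by -0.28 in both arms (SE 0.062 in Sed, 0.073 in ExT), and Mrps18b was higher by 0.28 (SE 0.071) in Sed and 0.52 (SE 0.073) in ExT rats. Mrps18c differed by -0.29 (SE 0.103, adjusted p = 0.015) in Sed and 0.01 (SE 0.096, adjusted p = 0.90) in ExT rats. With library totals alone the calls of Mrps18a (adjusted p 0.60 in Sed and 0.31 in ExT rats) and of Mrps18c in Sed rats (adjusted p 0.63) were lost.

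Of the other genes with a role of their own, Mrpl58, a peptidyl-tRNA hydrolase that frees stalled ribosomes, was higher in LV by 0.17 (SE 0.069) and 0.20 (SE 0.066). Its call in Sed rats was lost with RLE scaling (adjusted p 0.059). Mrps30 differed by -0.24 (SE 0.073) in Sed rats, and its value in ExT rats was -0.09 (adjusted p 0.22). Mrpl12 differed by -0.23 (SE 0.055) in Sed rats, and its value in ExT rats was -0.08 (adjusted p 0.38). Neither of these calls in Sed rats held with library totals, where Mrps30 read -0.01 and Mrpl12 0.01.

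Other genes of mitochondrial translation were also called in both directions. So were genes at large, with 40.0% higher and 38.6% lower over all genes in Sed rats. Of 5 subunits with other symbols, Dap3, a GTP-binding small-subunit protein, rose by 0.80 in Sed and 0.91 in ExT rats, and Ptcd3 by 0.18 and 0.34. Chchd1 (-1.03 and -0.73), Gadd45gip1 (-0.96 and -0.91) and Aurkaip1 (-0.59 and -0.57) were lower in LV in both arms. Of 16 translation factors, 7 were higher and 5 lower in Sed rats, led by Tsfm, the exchange factor of the mitochondrial elongation factor Tu, at 1.08, and by Slirp, an RNA-binding partner of Lrpprc, at 1.08. Of 24 assembly factors, 8 were higher and 8 lower, and of 15 mitochondrial tRNA synthetases 6 and 6, from Vars2 at -0.88 and Rars2 at -1.02 to Cars2 at 0.84. For comparison, 38 of 75 cytosolic ribosomal protein genes were higher and 24 lower, with a median of 0.18.

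The 2 ribosomal RNAs of the mitochondrial genome, listed as AY172581.9 and AY172581.24, differed in opposite directions. The first was lower in LV by -1.31 (SE 0.119) and the second higher by 1.24 (SE 0.139) in Sed rats. The ribosomal depletion kits differ between the tissues, and the part of the kit in these values was not tested.

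In the mitochondrial fraction, the question was whether these transcripts, whose proteins are destined for mitochondria, were enriched or depleted against whole muscle. With TMM scaling they were depleted: 68 of 70 genes tested were lower in MT_Sed than in SM_Sed and 2 were higher, and in ExT rats 68 of 69 were lower and 0 higher (68 at an unadjusted p under 0.05, while DESeq2, with no filter on low counts, called 68 of 71 lower and 3 higher). Over all genes 94.8% were called in Sed rats (61.7% higher, 33.1% lower) and 94.3% in ExT rats (59.3% and 35.0%). The median over the family was -2.23 in Sed and -2.24 in ExT rats, against 1.81 and 1.31 over all genes. The same 68 genes were called lower in both arms, a count given without a share over all genes.

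The size of the deficit rested on the scaling, and for part of the genes so did its direction. With library totals alone 39 genes were lower and 4 higher in Sed rats (median -0.64, against 3.43 over all genes, of which 12.3% were lower and 77.1% higher), and 33 and 4 in ExT rats (median -0.69, against 2.92, with 11.5% lower and 73.8% higher). With counts thinned to the smallest library, 42 of 50 members tested in Sed and 24 of 30 in ExT rats were called, where 85.3% and 82.7% of all genes were. In nuclear CPM, 40 of 71 means were lower in MT_Sed than in SM_Sed and 31 higher. Of the 70 members tested, 1 lay above the median of all genes in Sed rats. Many genes that pass the count filter in MT are near 0 in SM. Among the 13498 genes tested here that also passed the filter in SM alone, a set chosen after the data were seen, 56.0% were lower and the median was -0.54, and 68 of 69 members lay below it.

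**Figure D4:**
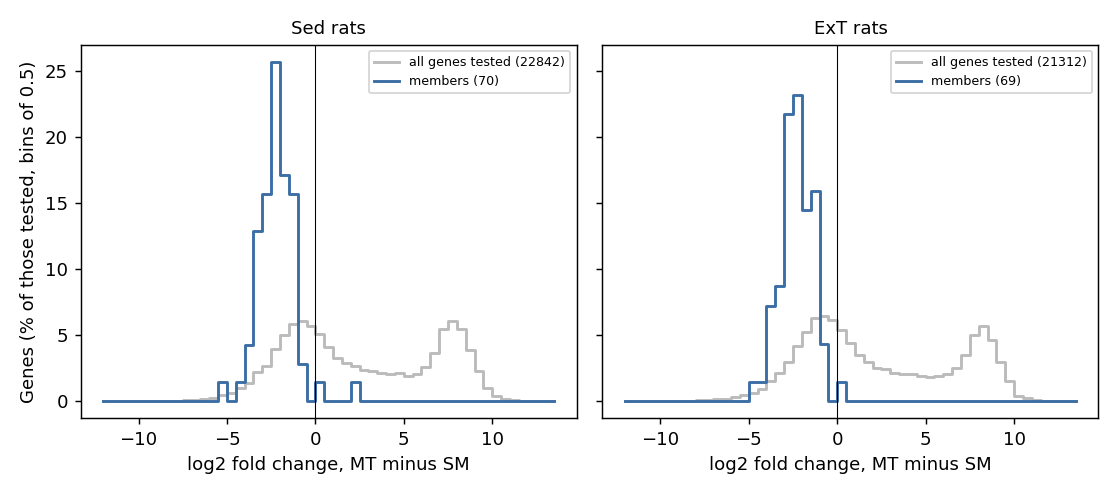
Distribution of the log2 fold change of MT against SM, with TMM scaling, for all genes tested (grey) and for the mitochondrial ribosomal protein genes (blue), in Sed and ExT rats, as a percentage of each set in bins of 0.5. The members lie to the left of 0, with medians of -2.23 and -2.24, except for the 2 called higher in Sed rats and those not called, and the other genes spread to both sides.

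Mrpl54 was the member most depleted in the fraction. Its libraries read 100.4, 139 and 171 CPM in SM_Sed and 1.81, 4.04 and 8.26 in MT_Sed, a log2 difference of -5.06 (SE 0.125, adjusted p = 6.2e-36, n = 15 against 15), and -4.82 (SE 0.158) in ExT rats. Mrpl12 read 105, 139.8 and 155 CPM in SM_Sed and 3.58, 6.70 and 12.0 in MT_Sed, a difference of -4.26 (SE 0.098), and -4.40 (SE 0.148) in ExT rats. Neither gene's groups overlapped, and the MT values rest on 4 to 18 counts per library for Mrpl54 and 7 to 35 for Mrpl12 in Sed rats.

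Mrpl17, a large-subunit protein with a bacterial homolog, differed by -3.63 (SE 0.111) in Sed rats, from 47.0, 54.2 and 61.9 CPM to 0.972, 4.599 and 7.35. Mrps21, a small-subunit protein, differed by -3.53 (SE 0.117) in Sed and -3.66 (SE 0.127) in ExT rats, and Mrps24 by -3.72 (SE 0.113) in ExT rats. Over the family, 67 of 71 genes in Sed and 61 of 71 in ExT rats had every MT library below every SM library on the TMM scale, against 24.6% and 25.7% of all genes tested. In nuclear CPM the counts were 8 and 13 of 71, against 5.78% and 6.55% of all genes tested. On that scale 3 of 71 in each arm had every MT library above every SM library, against 74.3% and 71.2% of all genes tested.

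The 2 genes called higher in MT_Sed have few counts in muscle. Mrps17, a small-subunit protein, read 0.147, 0.394 and 0.550 CPM in SM_Sed, from 2 to 9 counts, and 0.429, 1.83 and 2.73 in MT_Sed, from 1 to 10 counts. The ranges overlapped, and the log2 difference was 2.20 (SE 0.223, adjusted p = 7.9e-13). Mrps17 did not pass the count filter in SM alone and entered this test through its MT libraries, so the call by itself does not show a higher level in MT. In ExT rats Mrps17 was not tested, and its means were 4.61 nuclear CPM in MT and 0.421 in SM. Mrps6 read 1.30, 2.10 and 3.11 CPM in SM_Sed and 0.472, 3.07 and 4.29 in MT_Sed, a difference of 0.50 (SE 0.181, adjusted p = 0.0089). Its call was lost without the count filter (adjusted p 0.066), in rats 2 to 16 (0.051) and in rats 17 to 32 (0.089).

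Among the genes with a role of their own, Mrps18a (-2.42, SE 0.093), Mrps18b (-2.60, SE 0.101), Mrps30 (-2.67, SE 0.105), Mrps36 (-2.45, SE 0.116) and Mrpl58 (-2.46, SE 0.106) lay near the family's median in Sed rats. Mrps18c differed less, by -1.14 (SE 0.093) in Sed and -0.85 (SE 0.103) in ExT rats. It read 15.97, 22.8 and 26.99 CPM in SM_Sed and 6.79, 9.71 and 12.95 in MT_Sed. Its direction turned with library totals, to 0.49 in Sed (adjusted p 0.058) and 0.66 in ExT rats (adjusted p 0.049).

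On the TMM scale, other parts of the translation machinery differed in how many of their genes were lower in the fraction. In Sed rats 33.1% of all genes were lower, and 56.0% of those that also passed the count filter in SM alone. The assembly factors and tRNA synthetases lay nearest to the latter share. All 5 subunits with other symbols were lower in both arms, led by Chchd1 at -4.14 and Gadd45gip1 at -3.13 in Sed rats. Of 16 translation factors 15 were lower and 0 higher (15 at an unadjusted p under 0.05), led by Tufm, the mitochondrial elongation factor Tu, at -4.08, by Gfm1, elongation factor G, at -3.53 and by Lrpprc, which stabilises mitochondrial mRNAs, at -3.32. The assembly factors were mixed, with 16 of 24 lower and 3 higher, among them both identifiers of Nsun4, an rRNA methyltransferase, at 2.93 and 1.02. Of 15 tRNA synthetases 9 were lower and 5 higher, from Hars2 at -1.77 to Pars2 at 1.15. The cytosolic ribosomal protein genes had a lower median than the mitochondrial ones, -4.00, with 71 of 74 lower.

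The 2 mitochondrial rRNA genes were not called between MT and SM (AY172581.9 at 0.06, SE 0.450, and AY172581.24 at 0.28, SE 0.464, in Sed rats). Their levels ran from 14005 to 1262210 CPM over the MT_Sed libraries for AY172581.9, against 135110 to 249101 in SM_Sed. Counts of receptor genes and of the cell type marker lists also differed between MT and SM. Whether they came from cells of those types was not tested. The 1262 odorant and vomeronasal receptor genes took 1.37% to 1.98% of nuclear-encoded counts in MT, against 0.000766% to 0.00158% in SM, and 5 leukocyte genes summed to 282 to 404 nuclear CPM in MT against 24.995 to 77.2 in SM, where 2 of the 5 were at 0 in some library. The 3 adipocyte genes summed to 55.7 to 146 nuclear CPM in MT against 0.0960 to 26.5 in SM, where 2 of the 3 were at 0 in some library. Other lists were lower in MT or overlapped: the skeletal muscle genes summed to 648 to 2925 nuclear CPM in MT against the 125903 to 168941 in SM given above. The endothelial genes summed to a median of 326 in MT against 530 in SM, the fibroblast genes to 163 against 259 and the smooth muscle genes to 232 against 342, with overlapping ranges. The heart genes summed to 223 to 378 in MT and the erythroid genes to 28.7 to 52.1, both above every SM library. Their part in the family's deficit was not tested.

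Training left no member called in whole muscle. Of 69 genes tested, 0 passed with edgeR and 0 with DESeq2, 8 had an unadjusted p under 0.05, and 0.206% of all 13570 genes were called. For counts at an unadjusted p, here and below, no share over all genes is given, except in the test between ranges of rat number. The median log2 difference of ExT against Sed was 0.03 over the family, with 46 of 69 values above 0, against -0.01 over all genes. In nuclear CPM 60 of the 71 genes had a higher mean in SM_ExT than in SM_Sed, so the count above 0 also rested on the scaling. In all 71 genes the SM_Sed and SM_ExT libraries overlapped, as they did in all 13570 genes tested.

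Mrpl44, a large-subunit protein with a fold of the ribonuclease III type, had the smallest p. It read 14.7, 18.7 and 21.9 CPM in SM_Sed and 18.3, 20.9 and 26.3 in SM_ExT, a difference of 0.17 (SE 0.054, adjusted p = 0.16). Mrps35, a small-subunit protein, read 9.29, 11.1 and 13.3 against 9.83, 12.2 and 15.4 CPM (0.17, SE 0.066, adjusted p = 0.25). Mrpl19, a large-subunit protein with a bacterial homolog, read 7.75, 9.97 and 13.7 against 9.75, 11.4 and 14.3 CPM (0.17, SE 0.071, adjusted p = 0.29). All 3 overlapped over most of their range.

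The SM values differed between the 2 ranges of rat number, which the labels do not name as a batch. In rats 2 to 16 (7 and 7), 63 of 69 values were above 0 with a median of 0.14, 24 had an unadjusted p under 0.05 and 1 gene was called, where 2.95% of 13423 genes were called. In rats 17 to 32 (8 and 8), 51 of 69 were below 0 with a median of -0.07, 6 had an unadjusted p under 0.05 and 0 were called, where 0.00732% of 13662 genes were called. Members varied together in SM (median correlation 0.44), so their directions and unadjusted p-values are not independent. The unadjusted counts in each range are given without a share over all genes. The gene called in rats 2 to 16 was Mrpl38, a large-subunit protein, at 25.3, 30.7 and 38.8 CPM in Sed and 35.8, 40.1 and 42.1 in ExT rats. Its log2 difference was 0.34 (SE 0.082, adjusted p = 0.038) there and 0.01 in rats 17 to 32.

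The difference between ranges was tested itself, as an interaction chosen after the data were seen. None of 13570 genes was called by edgeR (0%), and 21 of 69 members had an unadjusted p under 0.05, against 1807 of all genes. Of the 69 values 66 were below 0, meaning a smaller ExT minus Sed difference in rats 17 to 32, with a median of -0.18, against 0.00 over all genes. Mrpl30 had the smallest p, at -0.45 (SE 0.138, adjusted p = 0.20), and Mrpl54 read -0.36 (SE 0.122, adjusted p = 0.23). For Mrpl38 the interaction was -0.32 (SE 0.163, adjusted p = 0.40).

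Other values moved with these ranges. The mean member sum was 0.221% in SM_Sed and 0.255% in SM_ExT in rats 2 to 16, and 0.232% and 0.226% in rats 17 to 32. The share of counts from the mitochondrial genome had means of 28.2% and 33.3% in the former and 31.8% and 31.5% in the latter. The SM_Sed library of rat 8 had the lowest member sum of the SM libraries, 0.170%, and also the lowest share of mitochondrial counts, 22.1%. Their part in the members' values was not tested. The cytosolic ribosomal protein genes went the other way over all rats, with 70 of 74 values below 0, a median of -0.10 and 0 called (16 at an unadjusted p under 0.05).

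**Figure D5:**
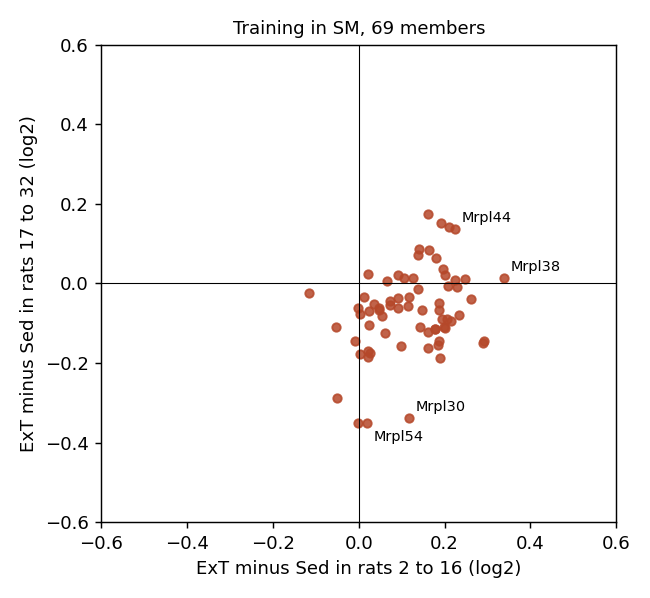
Training effect on each of 69 genes in whole muscle, as the log2 difference of ExT minus Sed, in rats 2 to 16 (horizontal axis, 7 against 7) and in rats 17 to 32 (vertical axis, 8 against 8). Each point is a gene. Most points lie right of 0 (63 of 69) and below 0 (51 of 69), and Mrpl38 is the one gene that passed an adjusted p of 0.05, in rats 2 to 16.

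In the mitochondrial fraction 67 genes were tested for training and 0 passed with edgeR or DESeq2, with 5 at an unadjusted p under 0.05, and 0% of all 19281 genes were called. The median was -0.01, against 0.00 over all genes. Mrps23, a small-subunit protein, had the smallest p: it read 8.27, 10.4 and 14.4 CPM in MT_Sed and 3.38, 6.95 and 10.9 in MT_ExT, from 5 to 30 counts per library, a difference of -0.52 (SE 0.161, adjusted p = 0.9997). Mrps27 had values of 13.01, 19.6 and 30.8 against 11.7, 17.6 and 20.8 CPM (-0.29, SE 0.117). Mrpl22 had 2.89, 8.53 and 16.5 against 5.41, 12.3 and 23.3 CPM (0.37, SE 0.163). The groups overlapped in all 71 genes, as they did in all 19281 genes tested.

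In the left ventricle 70 genes were tested and 0 passed with edgeR or DESeq2, with 3 at an unadjusted p under 0.05, and 0% of all 14488 genes were called. Of the 70 values 52 were above 0, with a median of 0.03 against 0.00 over all genes. The count rested on the scaling: in nuclear CPM the LV_ExT mean was higher than the LV_Sed mean in 30 of the 71 genes and lower in 41. In rats 17 to 32 alone, which left 6 against 6, 64 of 70 were above 0 with a median of 0.06, 15 had an unadjusted p under 0.05 and 0 were called. Members varied together in LV (median correlation 0.57), so these counts are not of independent genes, and they are given without a share over all genes. Mrps34, a small-subunit protein, read 12.6, 13.2 and 14.3 CPM in LV_Sed and 13.9, 15.0 and 18.4 in LV_ExT, a difference of 0.20 (SE 0.059, adjusted p = 0.80). Mrpl38 read 29.6, 31.9 and 36.2 against 32.4, 34.4 and 39.0 CPM (0.12, SE 0.051), and Mrps2, a core small-subunit protein, 5.62, 5.75 and 7.19 against 5.97, 7.03 and 8.24 CPM (0.18, SE 0.081), both at an adjusted p of 0.80. Each of these groups overlapped.

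Whether training acted differently in the 3 kinds of library was tested as an interaction. For MT against SM, 0 of 71 genes passed with edgeR or DESeq2 (8 at an unadjusted p under 0.05), where 0.0181% of 27684 genes were called. The smallest p values belonged to Mrps23 (-0.52, SE 0.150, adjusted p = 0.24), Mrpl44 (-0.40, SE 0.135, adjusted p = 0.35) and Mrps27 (-0.35, SE 0.123, adjusted p = 0.37). For LV against SM of the same 14 rats, 0 of 70 passed with edgeR or DESeq2 (9 at an unadjusted p under 0.05), where 0% of 15049 genes were called. There 64 of 70 values were above 0 with a median of 0.13, against 0.01 over all genes. These SM libraries are also part of the muscle values above. Most of the 14 rats were in the higher range of rat number, where most SM training values were below 0. Members varied together within each tissue, so the 64 values are not independent. In nuclear CPM the ExT mean, over all libraries, was higher in 60 of 71 genes in SM and 30 in LV. The interaction was not tested on that scale. Mrpl54 was at 0.40 (SE 0.130), Mrps2 at 0.33 (SE 0.130) and Mrps34 at 0.20 (SE 0.082), each with an adjusted p of 1.00.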

How the data were processed

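Ribosome-depleted total RNA was measured in 74 libraries from 30 rats. The values are whole-number counts per gene that the authors deposited as 1 table per kind of library. The submitters' processing notes name FastQC 0.74, cutadapt 4.6, STAR 2.7.11a, HTSeq and the genome build mRatBN7.2, and the strand setting is not given in the sources used here. Every library was grouped by its title, and libraries with the same rat number come from the same animal.

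Each comparison was fitted on the whole table with edgeR 4.0.16 in R 4.3.3 (robust quasi-likelihood F test, TMM scaling, edgeR's filter on low counts), and p-values were adjusted over all genes tested by Benjamini-Hochberg, with calls at an adjusted p under 0.05. Members were then read out. A CPM in the text is TMM-scaled within its own test, so the CPM of a gene differs between tests, and a nuclear CPM is a CPM over the counts of genes outside the 37 genes of the mitochondrial genome. Only counting error and the spread between rats stand behind the standard errors. The scripts were tested on simulated counts. Alternatives were DESeq2 1.42.0, other scalings, no filter, the mitochondrial genome left out, thinning of counts, the replicate block and ranges of rat number.

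The members and lists were chosen with earlier results of these data known. The genes named with values are those with a placement or role of their own (Mrps18a, Mrps18b, Mrps18c, Mrps30, Mrps36, Mrpl12, Mrpl58), the 4 largest called differences in each direction at a mean of at least 1 CPM, or the 3 smallest p-values where fewer than 4 genes were called in a training test, and the 4 highest and 4 lowest in SM_Sed. Of the other lists, up to 3 called genes per direction are named. Transcript lengths were not used here.

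The pairing by rat was checked on deviations from the group means. Same-rat MT and SM libraries correlated by a median of 0.004 over 30 rats (range -0.0349 to 0.0753), and LV and SM by 0.015 over 14 rats. In RefSeq (assembly GRCr8), 70 of the 71 genes were found, 19 overlap another gene and 24 have a named pseudogene, so that reads could be shared between copies.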

Additional observations from a re-analysis of the deposited data

Results flagged for a closer look

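Within groups of 7 LV libraries, 56 sets of values of named members were searched for a single library far from the others, and 5 were found, where chance gives about 1 in 20. Mrpl40 read 10.6 TMM-scaled CPM in rat 32 of LV_Sed, and 6.80 to 8.06 in the other 6. Mrps36 read 61.8 in rat 20 of LV_Sed, and 71.1 to 78.1 in the others. Rat 25 of LV_ExT stood high for Mrps18a, at 22.4 against 18.7 to 20.1, and for Mrps34, at 18.4 against 13.9 to 15.6. Mrps5 read 21.3 in rat 26 of LV_ExT, and 24.6 to 26.5 in the others.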

How the results depend on the processing

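The count of members called kept within 1.5 times its value under RLE scaling, no count filter, DESeq2 and the mitochondrial genome left out, in all 9 tests. The training tests and interactions called 0 members under each of these and with library totals. The exception was rats 2 to 16 in SM, with 1. Against SM, the MT call counts moved with library totals, from 70 to 43 in Sed and from 68 to 37 in ExT rats, and with counts thinned to the smallest library, to 42 and 24, where only 50 and 30 genes could be tested. The log2 ratio of the member sums of MT_Sed to SM_Sed was -0.33, and -0.0573 as a median over members, and in ExT rats -0.43 and -0.20. RLE scaling shifted the median of all genes in MT against SM, Sed, from 1.81 to 2.21, and library totals to 3.43.

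With the replicate block by rat, MT against SM called 70 in Sed and 68 in ExT rats, and LV against SM 56 and 50, against 55 and 50 without it. It changed no other call count by over 1.5 times. In 1 of 30 SM and MT pairs, and 4 of 14 SM and LV pairs, the SM library correlated best with its own rat. LV and SM of the same rat had a median correlation of 0.015, against -0.003 for other rats of the same arm. A likeness between same-rat libraries is not excluded, since the low depth of MT limits the check there.

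Of the named values, 471 settings kept direction and call, 7 reversed, 8 lost the call and 2 gained it. Mrps18c in MT against SM turned to 0.49 (library totals) and 0.60 (thinned) in Sed and 0.66 (library totals) in ExT rats. In LV against SM with library totals, Mrpl12 turned to 0.0063 in Sed and 0.12 in ExT rats and Mrps30 to 0.11 in ExT rats. Mrps18c in ExT rats turned to -0.0917 with all SM libraries. The cause was not tested. Members that overlap no other RefSeq gene gave 20 higher and 19 lower of 50 in Sed and 21 and 13 in ExT rats for LV against SM, an alternative chosen after seeing the data. Levels in nuclear CPM, also chosen after seeing the data, were used for MT against SM. The counts of members whose libraries did not overlap, in either direction, moved from 67 to 11 in Sed and from 61 to 16 in ExT rats. Depth limits the MT values: 6 of 71 genes had a median count under 10.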
